A study of Mus musculus with 36 samples.

Results

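The partner arms of the miR-17-92 cluster are the strands of its 6 hairpins that are usually the less used product, namely mmu-miR-17-3p, mmu-miR-18a-3p, mmu-miR-19a-5p, mmu-miR-20a-3p, mmu-miR-19b-1-5p and mmu-miR-92a-1-5p. They were taken by name, and all 6 were found among the 469 miRNAs of the table. The prefix mmu for mouse is left out from here on. Small RNA was sequenced from B3 cells, a mouse pre-B cell line, in 36 samples of 12 groups. There were 3 samples (replicates 1, 2 and 4) of each of a control line and an Ikaros line at 0, 2, 6, 12, 18 and 24 h. The control line carried a retroviral MSCV vector encoding ERt2, a tamoxifen-responsive form of the estrogen receptor's ligand-binding domain, followed by an IRES and GFP. The Ikaros line carried the same vector with HA-tagged Ikaros, a lymphocyte transcription factor, fused to ERt2, and both lines were sorted for GFP. The drug 4-hydroxy-tamoxifen (4-OHT) brings the fusion protein into the nucleus, and it was given to both lines at 0.5 uM. The labels give that dose for the 0 h samples too, while in the study's methods the 0 h cells received no drug.

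The mature miRNAs are cut from a long primary transcript. Drosha releases the hairpins in the nucleus, Dicer cuts each hairpin into a short duplex, and one strand of the duplex, the guide, is kept by an Argonaute protein while its partner is mostly lost. The miR-17-92 transcript is a well-known target of Myc, and the cluster supports the growth and survival of B-cell progenitors. Since a partner strand is commonly short-lived compared with its guide, its level can follow the supply of new precursor more closely. That is background, and no turnover was measured here.

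The members were chosen by the line difference (Ikaros minus control) at 24 h and by its growth since 0 h, as seen in these data, so values at 0 h and 24 h are given as a description only. Tests were run on the samples of 2, 6, 12 and 18 h. All levels are deposited normalised log2 values, on which a difference of 1 is a doubling, and all differences are on that log2 scale. The values are not scaled for length, and the mature sequences compared here have nearly the same length.

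The sequences of 5 of the 6 members were found in the RefSeq table of mouse assembly GRCm38.p6, and they are shown because the arms of neighbouring hairpins differ in the seed, the part of a miRNA that pairs with its targets. They are written from 5′ to 3′ with the seed (bases 2 to 8) in capitals.

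miR-17-3p: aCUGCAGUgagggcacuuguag

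miR-18a-3p: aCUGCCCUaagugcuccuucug

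miR-20a-3p: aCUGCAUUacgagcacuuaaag

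miR-19b-1-5p: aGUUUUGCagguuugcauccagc

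miR-92a-1-5p: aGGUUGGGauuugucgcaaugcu

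miR-19a-5p is named without its sequence. The 5 sequences have 5 different seeds, while the 6 guide arms of the cluster share 4. The paralog transcript miR-106a-363 carries related hairpins, and some of its partner arms are shown for comparison because they share a seed with a member or nearly so.

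miR-106a-3p: aCUGCAGUgccagcacuucuuac

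miR-20b-3p: aCUGCAGUgugagcacuucuag

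miR-19b-2-5p: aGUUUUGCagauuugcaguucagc

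miR-92a-2-5p: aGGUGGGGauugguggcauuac

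The seed of miR-17-3p recurs in miR-106a-3p and miR-20b-3p, and that of miR-19b-1-5p in miR-19b-2-5p. Beyond the seed these sequences differ. The mature guide miR-92a-3p is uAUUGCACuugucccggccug and is encoded on chromosome 14 and again on chromosome X, and miR-19b-3p likewise has a copy on each, so their reads cannot be assigned to a hairpin. Reads of near-identical guides such as miR-17-5p and miR-106a-5p may also have been split, and guide levels are uncertain to that extent.

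The 6 hairpins lie on the plus strand of chromosome 14 (GRCm38) within an exon of the non-coding host gene Mir17hg, chr14:115042879-115046727, and together span 836 bases. In transcript order they are Mir17 at chr14:115043671-115043754, Mir18 at chr14:115043851-115043946, Mir19a at chr14:115044000-115044081, Mir20a at chr14:115044157-115044263, Mir19b-1 at chr14:115044305-115044391 and Mir92-1 at chr14:115044427-115044506. The partner strand is the 3p arm in the hairpins of miR-17, miR-18a and miR-20a and the 5p arm in those of miR-19a, miR-19b-1 and miR-92a-1.

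Over the whole table, values ranged from 0.09 to 19.30 and sample medians from 3.70 to 4.15. The table holds no counts, so the depth of each sample is unknown and the precision rests on the 3 samples per group. Of 16 marker miRNAs of blood and other cell types, 9 were listed. The blood-cell miRNAs were high, with miR-142-3p between 12.08 and 14.6 and miR-181a-5p between 17.5 and 18.7 in all samples. The myeloid miR-223-3p lay between 0.63 and 2.63 in the control line and between 1.14 and 4.58 in the Ikaros line, and the endothelial miR-126a-3p between 5.30 and 6.24 and between 6.13 and 7.62. The epithelial miR-200c-3p lay between 4.24 and 5.48 over all samples, above most values of the mature-lymphocyte miR-150-5p, between 3.07 and 4.62. The stromal miR-143-3p lay between 0.448 and 2.404. The markers of erythroid cells, liver, muscle and neurons were not listed, nor were the stromal miR-145a-5p and the epithelial miR-205-5p. The part of these markers in the line differences was not tested. In bulk samples, fewer cells with a miRNA and less of it per cell cannot be told apart.

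By the study's own scheme, most controls of 2 to 18 h were sequenced in a different batch from the Ikaros line and from the other controls. Some samples were sequenced in both batches so that the authors could estimate and correct the batch effect, and these repeats were averaged before deposit. The line difference at 2 to 18 h therefore rests on that correction. In the deposited values line and batch cannot otherwise be told apart there. For the members called at 12 and 18 h the change beyond 2 h is also given. A fixed offset between batches cancels in it only where the compared samples of a line were sequenced in the same batch. The labels do not give the sequencing batch of each sample.

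The partner arms differed widely in level. Averaged over the 36 samples, miR-92a-1-5p was at 12.197 (rank 28 of 469 from the highest), miR-17-3p at 7.39 (rank 111), miR-18a-3p at 6.11 and miR-19b-1-5p at 5.60 (rank 174). The lowest were miR-20a-3p at 4.19 and miR-19a-5p at 4.11, neighbours that did not differ beyond their spread, with mean SDs within groups of 0.25 and 0.35. The other SDs were 0.11 for miR-17-3p, 0.19 for miR-92a-1-5p, 0.20 for miR-18a-3p and 0.39 for miR-19b-1-5p, against a median of 0.32 over all miRNAs.

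**Figure D1:**
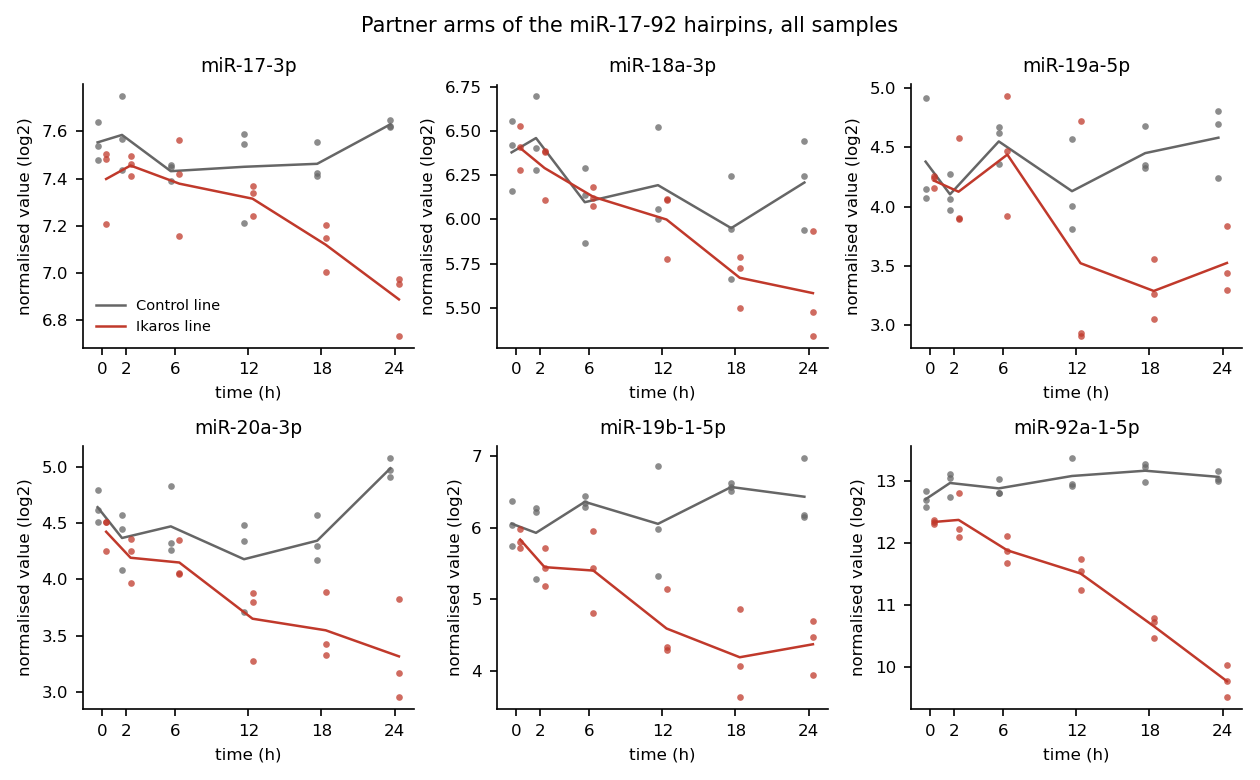
Normalised log2 value of each of the 6 partner arms against time in hours, with each of the 36 samples as a point, lines through the group means of the control and the Ikaros line, and an axis range of its own in each panel. In the panel of miR-92a-1-5p the Ikaros samples run from 12.09 to 12.80 at 2 h down to 9.51 to 10.02 at 24 h, while the control samples stay between 12.58 and 13.37 at all times.

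By 18 h, 4 of the 6 partner arms were lower in the Ikaros line than in the control line at an adjusted p under 0.05 (limma, Benjamini-Hochberg over 469 miRNAs), against 16.8% of all miRNAs. The count was 1 at 2 h (4.05% of all miRNAs), 1 at 6 h (7.25%) and 2 at 12 h (9.17%). At an unadjusted p under 0.05 the counts in limma were 1, 2, 3 and 5. Shares of all miRNAs or hairpins at the unadjusted threshold were not computed, here or below, so nothing is read from such counts. Without replicate 1 or replicate 2 of every group the adjusted count at 18 h was 2, and without replicate 4 that at 12 h was 4. Shares of all miRNAs were not computed with replicates left out, so nothing is read from those counts either. The median line difference of the 6 was -0.17 at 2 h and -0.22 at 6 h, then -0.57 at 12 h and -0.98 at 18 h, whereas the median of all miRNAs lay at 0.04, -0.01, 0.07 and -0.01.

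miR-92a-1-5p, the strand opposite miR-92a-3p, was the first member to be called, and its line difference was the largest of the 6 in size at each of 2, 6, 12 and 18 h. Differences between members were not tested. At 2 h the control samples were at 13.10, 12.75 and 13.05 and the Ikaros samples at 12.09, 12.22 and 12.80. The groups still overlapped, with Ikaros replicate 4 above the lowest control sample. The line difference was -0.60 (SE 0.17, n = 3 per group, limma adjusted p = 0.0257). The call was lost without replicate 1 or 4 of these controls or replicate 1 or 2 of these Ikaros samples, with limma adjusted p between 0.0877 and 0.144. It was also lost with sample medians subtracted (adjusted p = 0.0669) and with only the compared groups in the model (0.225). With a replicate of every group left out, the difference at 2 h lay between -0.77 and -0.39 (limma adjusted p from 0.0237 to 0.329). Already at 0 h the Ikaros samples, at 12.37, 12.30 and 12.33, were below the control samples at 12.69, 12.84 and 12.58, a described difference of -0.37.

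From 6 h on, miR-92a-1-5p separated the lines in every sample. At 6 h the control samples were at 13.03, 12.80 and 12.80 and the Ikaros samples at 12.102, 11.67 and 11.86, and their difference came to -0.999 (SE 0.17, limma adjusted p = 0.00012). At 12 h the controls were at 12.94, 13.37 and 12.92 against 11.24, 11.54 and 11.73, which gave -1.57 (limma adjusted p = 5.3e-08). At 18 h the controls were at 13.28, 13.22 and 12.98 and the Ikaros samples at 10.46, 10.78 and 10.73. This difference of -2.51 (SE 0.17, limma adjusted p = 1.7e-12) was the lowest line difference at 18 h among the 469 miRNAs as deposited. At 24 h the Ikaros samples had come to 9.77, 10.02 and 9.51 against 13.16, 12.99 and 13.03, a described difference of -3.29.

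The Ikaros line changed after 2 h, and no change was called in the control line. Beyond 2 h, the line difference of miR-92a-1-5p moved by -0.40 at 6 h (limma adjusted p = 0.996), by -0.98 at 12 h (adjusted p = 0.0522) and by -1.91 at 18 h (SE 0.25, adjusted p = 6.3e-06). The same-numbered pairs lay at -1.01, -0.53 and -0.25 at 2 h and at -2.82, -2.44 and -2.26 at 18 h. Within the Ikaros line the change from 2 h was -0.49 at 6 h (limma adjusted p = 0.685), -0.86 at 12 h (adjusted p = 0.00456) and -1.71 at 18 h (adjusted p = 3.8e-08). In the control line it was 0.20 at 18 h (limma adjusted p = 0.794). The change of its line difference over 2 to 18 h also passed a limma F-test (F = 22.4, adjusted p = 4.0e-05), as for 2.56% of all miRNAs. The call of the Ikaros-line change at 12 h was lost without any 1 of the 3 replicates, with adjusted p between 0.0711 and 0.162, and with sample medians subtracted (0.0719), and that at 18 h was kept in each of these. The F-test had an adjusted p of 0.0511 without replicate 2.

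**Figure D2:**
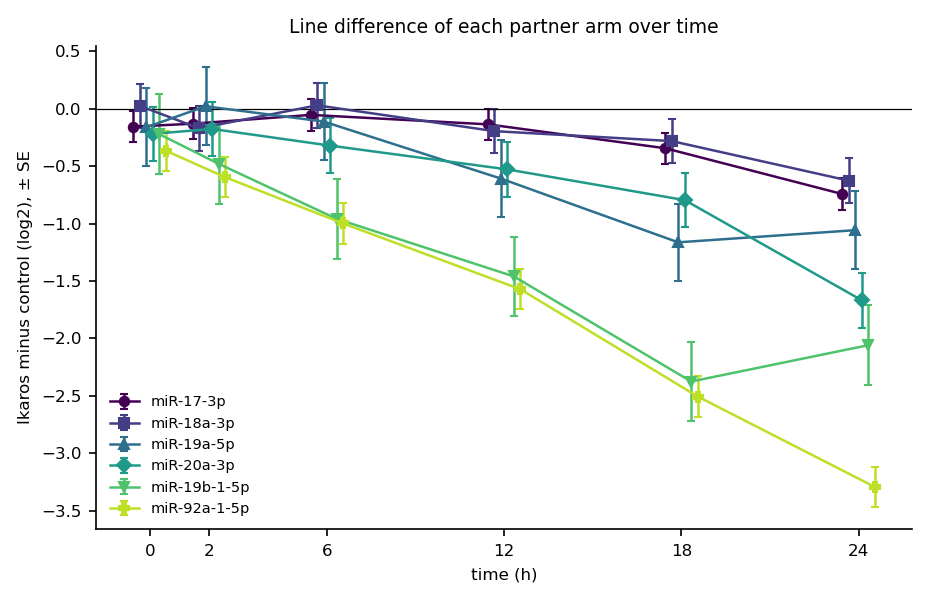
Line difference (Ikaros minus control, log2) of the 6 partner arms against time in hours, as differences of group means (n = 3 per group) with bars of ± SE from the limma model and a line at 0. miR-92a-1-5p goes from -0.60 at 2 h to -2.51 at 18 h with miR-19b-1-5p close above it, while miR-17-3p and miR-18a-3p are at -0.34 and -0.28 at 18 h.

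miR-19b-1-5p, the strand opposite miR-19b-3p, came next. At 6 h the control samples were at 6.44, 6.35 and 6.29 and the Ikaros samples at 5.96, 5.43 and 4.81. The groups did not overlap, and the difference was -0.96 (SE 0.35, limma adjusted p = 0.0627). At 12 h the controls were at 5.98, 5.32 and 6.85 and the Ikaros samples at 4.30, 4.34 and 5.14, which gave -1.46 (limma adjusted p = 0.00254; 0.0573 without replicate 1 and 0.0865 with only the compared groups in the model). At 18 h the controls were at 6.56, 6.62 and 6.51 and the Ikaros samples at 4.07, 3.63 and 4.87, with a gap between the groups, and differed by -2.38 (limma adjusted p = 3.6e-06).

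Beyond 2 h the line difference of miR-19b-1-5p moved by -0.98 at 12 h (limma adjusted p = 0.447) and by -1.90 at 18 h (SE 0.49, adjusted p = 0.0207). The controls at 2 h were at 6.28, 5.28 and 6.22, the Ikaros samples at 5.44, 5.19 and 5.72, and the groups overlapped. The change within the Ikaros line from 2 h to 18 h was -1.26 (limma adjusted p = 0.0143), and in the control line it was 0.64 (adjusted p = 0.725). The former had an adjusted p of 0.140 without replicate 1 and 0.194 without replicate 2. The change beyond 2 h lost its call without replicate 2 of the 2 h controls (-1.57, limma adjusted p = 0.0835), without replicate 4 of the 2 h Ikaros samples (-1.76, 0.0654) and without replicate 1 (-1.84, 0.065) or 2 (-1.62, 0.0812) of the 18 h Ikaros samples. It was also lost without replicate 1 of every group (-2.02, limma adjusted p = 0.126) and without replicate 2 of every group (-1.40, 0.403). At 24 h the Ikaros samples were at 4.69, 4.48 and 3.95 and the controls at 6.97, 6.14 and 6.18, a described difference of -2.06, no larger than at 18 h.

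miR-19a-5p, the strand opposite miR-19a-3p, showed its difference late. At 6 h the control samples were at 4.67, 4.62 and 4.36 and the Ikaros samples at 4.93, 3.92 and 4.47, on both sides of the controls. At 12 h the Ikaros samples were at 2.94, 2.91 and 4.72 against 4.01, 3.81 and 4.57, with replicate 4 apart from the other pair and above every control (line difference -0.61, SE 0.34, limma adjusted p = 0.1999). Without that Ikaros sample the difference was -1.21 (limma adjusted p = 0.00321). This was the 1 call among the 6 fits that left out a single sample. Their differences reached -0.30 and their limma adjusted p 0.603.

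At 18 h miR-19a-5p was at 4.35, 4.68 and 4.32 in the control line and at 3.05, 3.26 and 3.56 in the Ikaros line. The groups were apart, and the difference was -1.16 (limma adjusted p = 0.00947; 0.0902 without replicate 1 of every group and 0.136 without replicate 2). Its change beyond 2 h was -1.19 (SE 0.48, limma adjusted p = 0.151). At 24 h the values were 3.44, 3.84 and 3.30 against 4.80, 4.24 and 4.70, a described difference of -1.06.

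miR-20a-3p, the strand opposite miR-20a-5p, also passed at 18 h. Its control samples then were at 4.29, 4.57 and 4.17 and its Ikaros samples at 3.43, 3.33 and 3.89, all Ikaros samples below all controls. The difference was -0.80 (SE 0.24, limma adjusted p = 0.0109), after -0.53 at 12 h (adjusted p = 0.111) and -0.32 at 6 h (adjusted p = 0.453). The call at 18 h was lost without replicate 2 of the control (-0.68, limma adjusted p = 0.0627) or of the Ikaros samples (-0.69, adjusted p = 0.0632). It was also lost with sample medians subtracted (adjusted p = 0.0519) and with quantile normalization (0.0591). With a replicate of every group left out, the difference at 18 h lay between -1.05 and -0.58 (limma adjusted p from 0.0121 to 0.287). Beyond 2 h the change was -0.62 (limma adjusted p = 0.293). At 24 h the Ikaros samples were at 3.83, 3.17 and 2.96 and the controls at 4.97, 4.91 and 5.08, a described difference of -1.67. The control line was then higher than at 2 h by 0.62.

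miR-17-3p and miR-18a-3p, from the first hairpins of the transcript, did not pass a line comparison at 2 to 18 h in the model of all samples and miRNAs. miR-17-3p at 18 h was at 7.41, 7.42 and 7.55 in the control line and at 7.15, 7.004 and 7.20 in the Ikaros line. The groups did not overlap, but the difference was small, at -0.34 (SE 0.14, limma adjusted p = 0.0569). A replicate block for culture batch gave the same difference a limma adjusted p of 0.049, and leaving out miRNAs with a mean log2 value under 3 gave 0.0286. Its change beyond 2 h was -0.21 (SE 0.19, limma adjusted p = 0.551), but 0.066 with quantile normalization. At 24 h its samples were at 6.95, 6.73 and 6.97 against 7.65, 7.62 and 7.62, a described difference of -0.74.

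miR-18a-3p at 18 h was at 5.66, 5.94 and 6.24 in the control line and at 5.79, 5.50 and 5.72 in the Ikaros line, and the groups overlapped. The difference was -0.28 (SE 0.19, limma adjusted p = 0.291). From 2 h to 18 h it changed by -0.62 in the Ikaros line (limma adjusted p = 0.0304) and by -0.51 in the control line (adjusted p = 0.533). The former was lost without any 1 of the 3 replicates (adjusted p from 0.0568 to 0.447), with sample medians subtracted (0.129) and with quantile normalization (0.220). Its change beyond 2 h was -0.11 (SE 0.27, limma adjusted p = 0.859), but 0.05 and 0.13 on these other scalings, and at 24 h the described difference was -0.63.

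Over the 6 members, the change beyond 2 h was called for 2 at 18 h, against 2.35% of all miRNAs. At 12 h and at 6 h the limma count was 0, with 1 and 0 members at an unadjusted p under 0.05 and 0.426% and 0% of all miRNAs called. Within the Ikaros line, 0, 1 and 3 members fell from 2 h to 6, 12 and 18 h (0%, 1.71% and 7.25% of all miRNAs). The limma counts at an unadjusted p under 0.05 were 1, 3 and 6, for which no share of all miRNAs was computed. In the control line the limma counts at an adjusted p under 0.05 were 0, 0 and 0 at these times (0%, 0.213% and 0% of all miRNAs). At an unadjusted p under 0.05 the limma counts of members were 0, 0 and 1.

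The number of members with all 3 Ikaros samples below all 3 control samples was 2, 0, 2, 2, 5 and 6 in the order of the times. The shares of all miRNAs were 13.6%, 9.17%, 17.5%, 9.81%, 25.4% and 30.3%. The counts at 0 h and 24 h belong to the choice of the members and nothing is read from them.

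The steepness of the fall was described by a line through the 2 to 24 h values of each replicate in the Ikaros line. miR-92a-1-5p lost 1.15 log2 units over 10 h, equal to a loss of 1 log2 unit in 8.69 h. The mean change over 10 h was -0.60 for miR-19b-1-5p, -0.43 for miR-19a-5p, -0.42 for miR-20a-3p, -0.33 for miR-18a-3p and -0.25 for miR-17-3p. The corresponding changes in the control line lay between -0.11 for miR-18a-3p and 0.21 for miR-19b-1-5p. These slopes include the 24 h samples and were not tested.

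The order in time was less clear than the order in size. The midpoint time was taken as the time at which the line difference of a same-numbered series passed midway between its 2 h and its 24 h value. It was 19.4, 19.02 and 20.03 h for miR-17-3p and 14.7, 11.3 and 15.9 h for miR-92a-1-5p. For miR-19b-1-5p it was 11.4, 5.82 and 5.54 h. The remaining members varied too widely between replicates to be placed, from 9.81 to 20.1 h for miR-18a-3p, 3.06 to 16.6 h for miR-19a-5p and 10.03 to 20.9 h for miR-20a-3p.

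In all 3 series the midpoint of miR-19b-1-5p came before that of miR-92a-1-5p, and those of miR-19b-1-5p, miR-92a-1-5p and miR-19a-5p before that of miR-17-3p. The other pairs of members changed places between series. As a share of its 24 h value, the line difference at 18 h was 46.2% for miR-17-3p, 44.9% for miR-18a-3p and 47.7% for miR-20a-3p. It was 76.1% for miR-92a-1-5p, 110% for miR-19a-5p and 115% for miR-19b-1-5p. Differences in time between members were not tested. These orders hold for the deposited values with 2 h as the start. With 0 h as the start the mean midpoint of miR-17-3p went from 19.5 to 16.9 h, and it was 20.5 h with sample medians subtracted and 21.1 h with quantile normalization.

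The line differences are given here in the order of the hairpins along the transcript. At 18 h the members from first to last hairpin stood at -0.34, -0.28, -1.16, -0.80, -2.38 and -2.51. Spearman's rho between hairpin order and line difference was -0.89 at 18 h, -0.94 at 12 h and -0.94 at 6 h, over 6 points that share the same samples. It was already -0.94 at 0 h and -0.83 at 2 h. The arm side follows the order in part. The 3 members on the 5p side lay between -2.51 and -1.16 at 18 h and the 3 on the 3p side between -0.80 and -0.28, so order and side cannot be told apart. The same rho for the guide arms was 0.60 at 18 h and 0.14 at 12 h, and for the 6 partner arms of the paralog miR-106a-363 transcript it was 0.09 at both times.

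**Figure D3:**
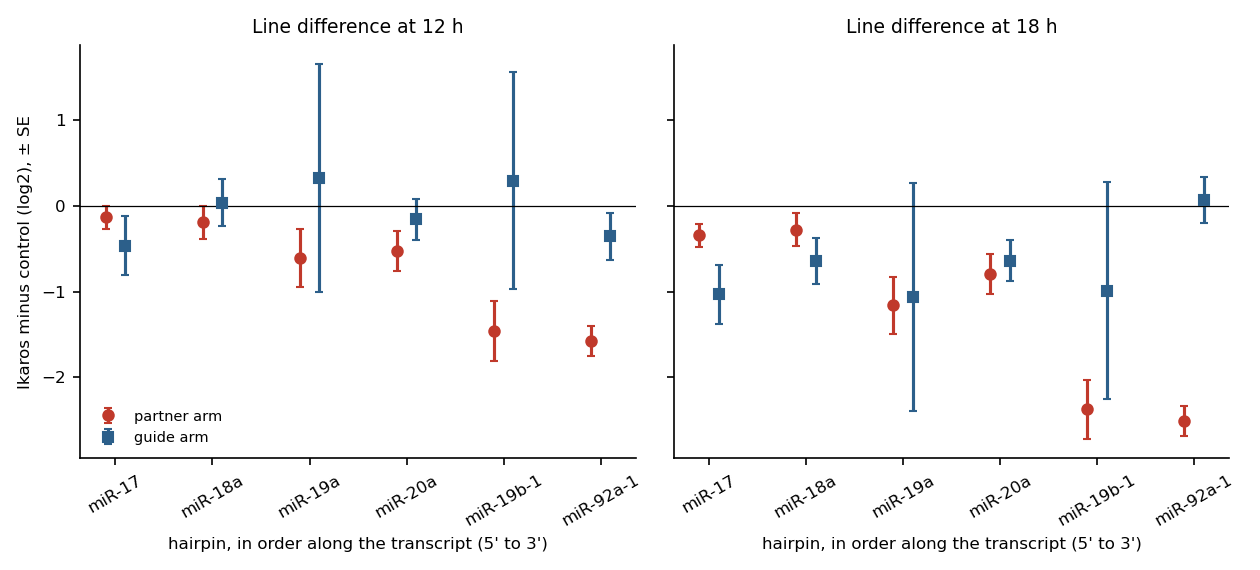
Line difference (Ikaros minus control, log2, ± SE) of the partner arm (circles) and the guide arm (squares) of each hairpin at 12 h and 18 h, in the order of the 6 hairpins along the miR-17-92 transcript. The partner arms at 18 h go from -0.34 at the miR-17 hairpin to -2.51 at the miR-92a-1 hairpin, and the guide arms from -1.03 to 0.07.

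Over the 12 group means, the 15 pairs of members had Pearson correlations between 0.63 and 0.94, with a median of 0.85. The deviations of single samples from their group means correlated between -0.69 and 0.65 over the 36 samples, with a median of 0.25. These are descriptions, since all members were measured in the same libraries and the group means include those at 0 h and 24 h that chose the members.

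Of the 6 guide arms, 2 were called lower in the Ikaros line at 18 h, against 16.8% of all miRNAs. These were miR-17-5p (-1.03, SE 0.35, limma adjusted p = 0.0227) and miR-20a-5p (-0.64, SE 0.24, adjusted p = 0.0393), which share a seed. Beyond 2 h these differences moved by -0.74 (limma adjusted p = 0.381) and -0.76 (adjusted p = 0.193). None of the 6 was called for a change beyond 2 h at 18 h, with 1 at an unadjusted p under 0.05 in limma. Of all miRNAs 2.35% were called lower there, so nothing is read from that count. miR-92a-3p was at 12.202, 12.33 and 12.54 in the control line and at 12.29, 12.60 and 12.396 in the Ikaros line at 18 h. The lines overlapped, and the difference was 0.07 (SE 0.27, limma adjusted p = 0.864). miR-19a-3p and miR-19b-3p varied most between replicates, with mean SDs within groups of 1.59 and 1.53, and their values allow no close comparison.

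The difference between the arms of a hairpin was tested over the 131 hairpins with both arms in the table. At 18 h the partner minus guide value of miR-92a-1 was 0.80 ± 0.33 in the control line and -1.77 ± 0.09 in the Ikaros line (SD, n = 3). The line difference of -2.57 (SE 0.40, limma adjusted p = 5.0e-05) was called for this 1 of the 6 hairpins, against 4.58% of all hairpins. At 12 h it was -1.21 (limma adjusted p = 0.0568), at 6 h -0.64 (adjusted p = 0.566) and at 2 h -0.33 (adjusted p = 0.979). Of the 6 hairpins, 0 were called at 2, 6 and 12 h, with 0, 0 and 1 at an unadjusted p under 0.05 in limma, and 0%, 0% and 4.58% of all hairpins were called.

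Beyond 2 h the arm difference of miR-92a-1 moved by -2.25 at 18 h (SE 0.56, limma adjusted p = 0.0254; 1.53% of all hairpins were called). This call was lost without any 1 of the 3 replicates (-2.54 to -1.97, limma adjusted p from 0.115 to 0.667) and with quantile normalization (-1.83, adjusted p = 0.280). In the miR-19b-1 hairpin the line difference of the arm difference was -1.38 at 18 h, with an SE of 1.15 (limma adjusted p = 0.623). The other line differences of the arm difference at 18 h were 0.69 for miR-17 (SE 0.38), 0.36 for miR-18a (SE 0.39), -0.10 for miR-19a (SE 1.13) and -0.16 for miR-20a (SE 0.28).

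**Figure D4:**
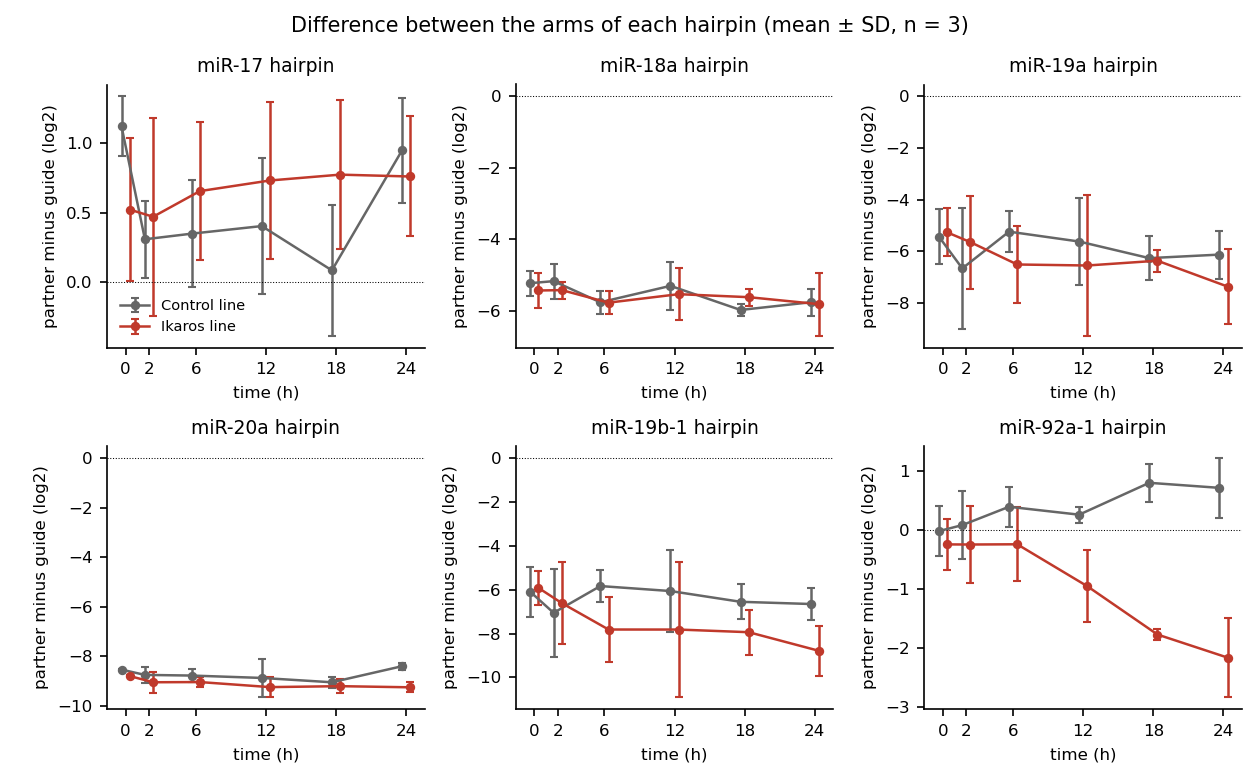
Partner arm minus guide arm (log2) of the 6 hairpins against time in hours in the control and the Ikaros line, as group means ± SD (n = 3), with a dotted line at 0 and an axis range of its own in each panel. For miR-92a-1 the control line goes from 0.09 at 2 h to 0.80 at 18 h and the Ikaros line from -0.24 to -1.77.

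In the hairpins of miR-18a, miR-19a, miR-20a and miR-19b-1 the guide was above the partner in all 36 samples, with median partner minus guide values of -5.58, -5.95, -8.87 and -6.63. The other two hairpins had no such fixed order. miR-17-3p lay above miR-17-5p in 33 of 36 samples, by a median of 0.58. miR-92a-1-5p lay above miR-92a-3p in 18 of 36 samples, 15 of the control line and 3 of the Ikaros line, although miR-92a-3p also holds the reads of its copy on chromosome X. These gaps set normalised log2 values of miRNAs of 21 to 23 bases side by side.

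The paralog transcripts gave partner arms for comparison. The miR-106a-363 transcript on chromosome X has partner arms related in sequence to those above. At 18 h all 6 of them (miR-106a-3p, miR-18b-3p, miR-20b-3p, miR-19b-2-5p, miR-92a-2-5p and miR-363-5p) were called lower in the Ikaros line, against 16.8% of all miRNAs. Their line differences lay between -2.25 and -1.15. miR-19b-2-5p, which shares its seed with miR-19b-1-5p, stood at -2.25 (SE 0.42, limma adjusted p = 0.00011), and beyond 2 h it moved by -1.09 (adjusted p = 0.297). Their median line difference was -0.83 at 0 h, -0.51 at 2 h and -1.38 at 18 h, so that they were lower from the start. For the members these medians were -0.19, -0.17 and -0.98. How the lists differ was not tested. Beyond 2 h at 18 h, 0 of the 6 paralog arms were called by limma and 4 were at an unadjusted p under 0.05, with a median of -0.96. Of all miRNAs 2.35% were called lower there, so nothing is read from the count of 0.

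The miR-106b-25 transcript on chromosome 5 has 3 measured partner arms, of which 2 were called in the other direction at 18 h. These were miR-106b-3p (1.05, SE 0.18, limma adjusted p = 3.0e-05) and miR-93-3p (0.62, SE 0.20, adjusted p = 0.02), which stood above the control line, a direction called for 13.0% of all miRNAs. miR-25-5p was at 0.20 (SE 0.24, limma adjusted p = 0.575). Beyond 2 h these 3 arms moved by 0.81, 0.68 and 0.28 (limma adjusted p = 0.0591, 0.174 and 0.678), where the 6 members moved by between -1.91 and -0.11.

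**Figure D5:**
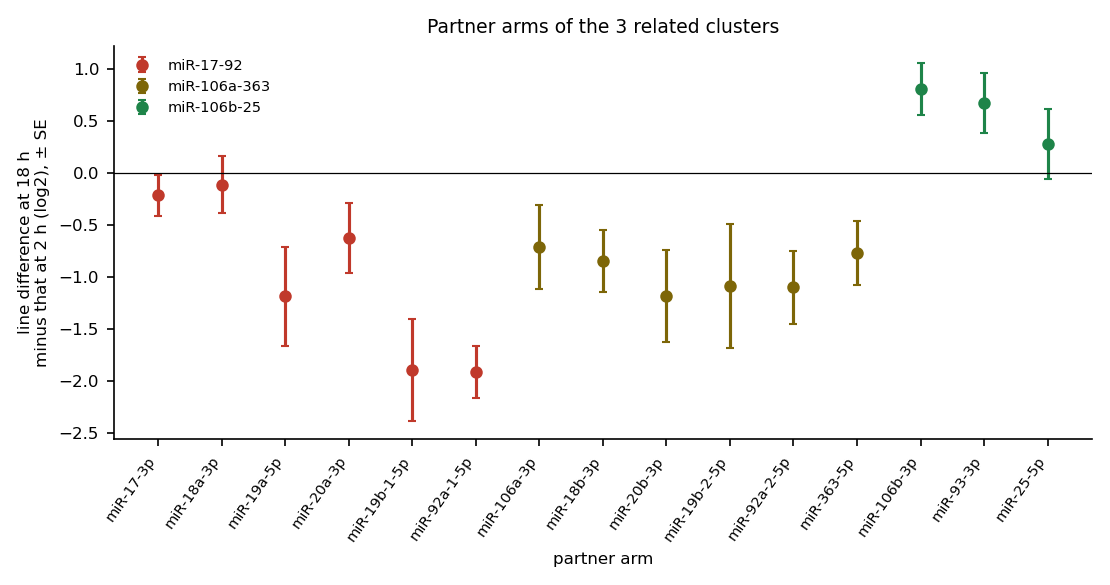
Change of the line difference (Ikaros minus control, log2) from 2 h to 18 h, ± SE, for the partner arms of miR-17-92 and of its paralog transcripts miR-106a-363 and miR-106b-25. The 6 members lie between -1.91 and -0.11, the 6 miR-106a-363 arms between -1.18 and -0.71 and the 3 miR-106b-25 arms between 0.28 and 0.81.

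The miRNAs outside the cluster whose profile over the 12 group means was most like the mean of the 6 members were miR-23a-5p (Pearson r = 0.97), miR-34c-5p (0.96), miR-182-5p (0.96), miR-34b-5p (0.96) and miR-34c-3p (0.95). In all, 29 of the 463 other miRNAs had r over 0.9. With the distance between line differences as the measure, 1 of these 5 was again among the nearest 5.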

How the data were processed

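The authors aligned small RNA reads to mouse miRNAs of miRBase with Novoalign and counted them with multiBamCov of bedtools. They dropped miRNAs of low CPM (NOISeq), then applied cqn for GC content, TMM, and ComBat for the sequencing batch, and took means of technical replicates. The deposited values are log2 values. Tool versions and the model behind ComBat are not given in the sources used here. The table has 469 miRNAs and 36 columns, and 0 columns were left unused. Depth is unknown, and no counting interval was computed.

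Samples were grouped by the line and time in their labels. The members and the lists were chosen with earlier results of these data known. Named miRNAs were the 6 members, the guide arms of their hairpins, the partner and guide arms of the paralog hairpins, and the 5 miRNAs with the highest Pearson correlation over the 12 group means with the mean of the members. Tests used limma 3.58.1 in R 4.3.3 (lmFit, eBayes with a mean-variance trend), with a mean for each of the 12 groups and all 36 samples. Benjamini-Hochberg adjustment ran over 469 miRNAs or 131 hairpins, with 0.05 as threshold. Sequences and hairpin positions came from RefSeq (GRCm38.p6), and the Mir17hg gene and its exons from GENCODE vM21. The scripts were tested on simulated data.

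The labels give culture batches 4, 5 and 6 at 0 h and 1, 2 and 3 later, so a change from 0 h is confounded with culture batch. Same-numbered samples of the lines share a culture batch, which pairs them. Deviations of same-numbered samples correlated at 0.34, 0.27, 0.41, 0.25, 0.06 and 0.26 from 0 h to 24 h. Replicates are culture batches of a single line each, so p-values measure the spread between batches and not between independently made lines. Alternatives were sample medians subtracted, quantile normalization, a mean log2 value of at least 3, no trend, only the compared groups, a replicate block for culture batch, a start at 0 h for the midpoint times, and leaving out each replicate or sample.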

Additional observations from a re-analysis of the deposited data

Results flagged for a closer look

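In 3 results the line difference grew between 2 h and 18 h in a limma test of this growth itself. For miR-92a-1-5p it changed by -1.91 (limma adjusted p = 6.3e-06), and it was lower at 18 h in 3 of 3 same-numbered pairs. For miR-19b-1-5p it changed by -1.90 (limma adjusted p = 0.0207), again lower in 3 of 3 pairs. That call was lost in 6 of the 15 fits with a sample or a replicate left out. For the arms of the miR-92a-1 hairpin, partner minus guide, it changed by -2.25 (limma adjusted p = 0.0254). The arm difference holds the same miR-92a-1-5p values. Its call was lost without any 1 of the 3 replicates and with quantile normalization.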

How the results depend on the processing

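The differences of miR-92a-1-5p at 6, 12 and 18 h, that of miR-19b-1-5p at 18 h, and the growth of the former beyond 2 h at 18 h kept their direction and their call under every alternative run. The number of members lower at 2 h was 0 with sample medians subtracted and with only the compared groups in the model, and 0 to 1 when replicates or samples were left out. At 6 h it was 2 with quantile normalization, with a mean log2 value of at least 3 and with only the compared groups, and 1 to 2 with samples left out. At 12 h it was 1 with only the compared groups and 1 to 4 with samples left out. At 18 h it was 5 with the replicate block and with a mean log2 value of at least 3, and 2 to 4 with samples left out. The count at 18 h fell with sample medians subtracted and with quantile normalization. In these miR-20a-3p lost its call (limma adjusted p = 0.0519 and 0.0591) and no other member gained one. Beyond 2 h it was 1 at 12 h with quantile normalization and 0 to 1 with samples left out, and 1 to 2 at 18 h. Within the Ikaros line the number falling from 2 h was 0 at 12 h with sample medians subtracted and 0 without any replicate, and 1 to 2 at 18 h. The F-test called 0 to 1 members with a replicate left out, and the arm difference beyond 2 h at 18 h 0 hairpins with quantile normalization or without any replicate. Members lower in every pair at 0 h were 2 to 4 with a replicate left out. Fewer pairs then had to be lower, so that count could not fall, and nothing is read from it. The likeness lists by correlation and by distance shared 1 miRNA of 5. The causes of the changes in the other counts were not tested. Shares of all miRNAs or hairpins called under these alternatives were not computed, so the counts are not set against them.

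Signs turned only for estimates that were not called. The largest in size were -0.21 for miR-17-3p beyond 2 h at 18 h and -0.18 for miR-20a-3p at 2 h. With sample medians subtracted, miR-17-3p was at 0.11 at 6 h, 0.046 beyond 2 h at 12 h and 0.00895 for the Ikaros change to 12 h, miR-18a-3p at 0.026 and 0.046 beyond 2 h at 12 and 18 h, and miR-19a-5p at 0.0497 at 6 h. With quantile normalization, miR-17-3p was at 0.21 and 0.066 beyond 2 h at 12 and 18 h and at 0.11 for the Ikaros change to 12 h, miR-18a-3p at -0.081 at 6 h and 0.13 beyond 2 h at 18 h, and miR-19a-5p at -0.0027 at 2 h. With samples left out, the ranges were -0.21 to 0.14 (miR-19a-5p) and -0.40 to 0.038 (miR-20a-3p) at 2 h, and -0.14 to 0.059 (miR-17-3p), -0.086 to 0.13 (miR-18a-3p) and -0.36 to 0.19 (miR-19a-5p) at 6 h. Beyond 2 h they were -0.13 to 0.15 (miR-17-3p) and -0.25 to 0.22 (miR-18a-3p) at 12 h and -0.25 to 0.035 (miR-18a-3p) at 18 h.

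The replicate block for culture batch moved the adjusted p of miR-17-3p at 18 h from 0.0569 to 0.049 and changed no other call of a member. Subtracting sample medians moved the median of all miRNAs at 18 h from -0.01 to 0.16. With 3 samples per group, unknown depth and a batch correction made before deposit, small differences of the low members are the least certain.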
